A study of Mus musculus with 18 samples.

Results

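The SOCS family comprises the suppressors of cytokine signalling Socs1 to Socs7 and Cish. Its members were taken by gene symbol, as all probe sets of the array annotated to 1 of these 8 symbols alone. The rule found 8 of 17097 named genes, with 20 of 45141 probe sets. It used no measured value, but the members were chosen with earlier results of these data known. Of the 20, 18 passed the filter on dim signal and were tested; they covered all 8 genes. The cells were mouse bone marrow derived macrophages. Marrow came from 3 male C57BL/6 mice of 10 weeks. It was grown for 1 week with 10% serum and 10000 U per ml of recombinant human CSF1. CSF1 is the growth factor that drives macrophage differentiation, and every group received it. The 6 groups were cells at baseline and cells kept with the synthetic glucocorticoid dexamethasone at 100 nM and sampled after 1, 2, 4, 10 or 24 h. Each group held 3 arrays, which the series design text calls biological replicates; the labels do not tie a replicate number to a mouse. No vehicle-treated samples at the later times were analysed here, so each treated group was set against the baseline cells.

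SOCS proteins are brakes on cytokine signalling. Cytokine receptors activate JAK kinases, JAK kinases phosphorylate STAT transcription factors, and STAT factors switch on SOCS genes among others. The SOCS protein then binds phosphorylated receptor or kinase through its SH2 domain. Its SOCS box recruits elongins and a cullin to mark the bound proteins for degradation, which closes a negative feedback loop. Socs1 and Socs3 also carry a short region that inhibits JAK kinases directly. In macrophages Socs1 is best known for restraining interferon signalling and Socs3 for restraining signals through the shared receptor chain gp130. Cish and Socs2 are typical targets of STAT5, and Socs2 restrains growth hormone signalling. Socs4 and Socs5 are linked to the EGF receptor, and Socs6 and Socs7 to insulin and KIT signalling, with less known of them in macrophages.

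The promoters of Cish and Socs3 are shown because both hold the letters TTCNNNGAA, the core that STAT factors recognise. RefSeq promoter sequences on GRCm38.p6, running from 250 bases before to 50 bases after the gene start, were at hand for 4 of the 8 genes, Cish, Socs1, Socs3 and Socs4. Capitals mark each match. The Cish sequence is chr9:107296409-107296708 on the plus strand and the Socs3 sequence is chr11:117969317-117969616 on the minus strand, both written 5′ to 3′ along the gene.
Cish: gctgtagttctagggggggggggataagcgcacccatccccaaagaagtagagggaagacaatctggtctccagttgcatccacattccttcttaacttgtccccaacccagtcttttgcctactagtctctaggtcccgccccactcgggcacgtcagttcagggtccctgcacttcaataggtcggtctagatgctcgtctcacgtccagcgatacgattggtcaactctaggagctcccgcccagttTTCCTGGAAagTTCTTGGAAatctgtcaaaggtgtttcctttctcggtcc
Socs3: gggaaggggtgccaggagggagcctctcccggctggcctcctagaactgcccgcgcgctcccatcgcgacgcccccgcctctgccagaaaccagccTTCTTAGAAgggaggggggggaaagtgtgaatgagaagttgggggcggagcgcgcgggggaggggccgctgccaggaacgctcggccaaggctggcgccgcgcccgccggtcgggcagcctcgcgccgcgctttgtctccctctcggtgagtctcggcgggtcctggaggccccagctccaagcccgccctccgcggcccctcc
Cish held 2 matches, TTCCTGGAA at position 0 and TTCTTGGAA at position 11 from the gene start, and Socs3 held 1, TTCTTAGAA at position -154. The motif reads the same on both strands, and the Cish matches do not overlap. At least 1 match occurred in 8.3% of 32851 RefSeq promoters of this length and 2 or more in 0.457%. The Socs1 and Socs4 windows held none. The core of the glucocorticoid receptor's element, searched on both strands as GNACA and TGTNC with 3 bases of any kind between them, was in none of the 4 windows and in 0.475% of all promoters. These matches describe the sequence of the window and show no binding.

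Across the 18 arrays, replicates of a group correlated at 0.994 to 0.997 (Pearson, log2 intensity over tested probe sets, a description across probe sets). As a check of the treatment, Dusp1, a phosphatase gene, rose by 3.36 ± 0.09 at 1 h, and Fkbp5, a receptor chaperone gene, rose by 3.67 ± 0.07 at 4 h (log2 change ± SE). Of 12 macrophage marker genes, 10 had a probe set with a single symbol, and all 10 were above background on every array. Background was set on each array as the 95th percentile of 43 control probe sets and lay between 3.62 and 4.19 on the log2 scale. Of 6 neutrophil markers, 2, Ltf (4.11 to 5.74) and Ngp (5.75 to 7.26), were above background on every array. Camp was above it on 13 of 18 arrays, Mpo on 12, Cxcr2 on 2 and Elane on none. Of the markers measured, 4 of 7 for T and NK cells, 2 of 5 for B cells, 5 of 7 for fibroblasts, 2 of 4 for dendritic cells, 4 of 6 for mast cells and 2 of 4 for erythroid cells stayed below background on every array. Others did not: Cd3e of the T and NK cell list and Cd79b of the B cell list were above background on all 18 arrays. The dendritic cell marker Cd209a was above it on 13 arrays, and Pdgfrb (fibroblast) and Klf1 (erythroid) on 12 each. All SOCS values below are log2 intensities of 1 probe set, which are comparable between arrays but not between probe sets. A change was called where limma's moderated test over 31421 probe sets gave a Benjamini-Hochberg adjusted p under 0.05. Groups of 3 arrays can lie apart without a call, as Socs1 did at 1 h (adjusted p = 0.9998). How often groups lay apart over all probe sets was not counted, so such separation is only described below.

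Socs2 gave the clearest response of the family, on 2 of its 4 probe sets. On the probe set 1449109_PM_at it read 5.27, 5.61 and 4.66 at baseline, 5.70, 6.43 and 5.52 at 1 h, 6.18, 6.77 and 6.15 at 2 h and 6.47, 6.81 and 6.01 at 4 h, for replicates 1, 2 and 3. At 10 h it read 5.46, 6.35 and 5.69, and at 24 h 5.33, 6.20 and 4.62. All 3 arrays at 2 h and all 3 at 4 h lay above every baseline array, whereas the 1 h, 10 h and 24 h arrays overlapped them. Replicate 2 was the highest of the 3 at every one of the 6 times, and all 18 arrays were above background. Group means followed the order 4 h (6.43 ± 0.41), 2 h (6.37 ± 0.35), 1 h (5.88 ± 0.48), 10 h (5.83 ± 0.46), 24 h (5.38 ± 0.79) and baseline (5.18 ± 0.48; SD, n = 3 each). Socs2 rose at 4 h by 1.25 ± 0.32 on the log2 scale, 2.38-fold (95% interval 0.59 to 1.91, adjusted p = 0.0176). At 2 h the difference was 1.19 ± 0.32, with an interval of 0.53 to 1.85 and an adjusted p of 0.057, just short of the threshold. The differences at 1, 10 and 24 h were 0.71, 0.65 and 0.20 and were not called. No step between neighbouring times was called on this probe set: 4 h differed from 2 h by 0.06 (interval -0.60 to 0.72) and 10 h from 4 h by -0.60 (interval -1.25 to 0.06, adjusted p = 0.448). Over all 5 times together the F test gave an adjusted p of 0.0273. These values are from the main fit, which held no replicate term. An alternative fit added a block for the replicate number, which the labels do not tie to a mouse. With it, limma's adjusted p was 0.022 at 1 h, 4.57e-06 at 2 h and 0.00397 at 10 h. The step from 4 to 10 h then had an adjusted p of 0.0235. In bulk RNA of this kind, fewer cells of a type and less RNA per cell cannot be told apart.

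**Figure D1:**
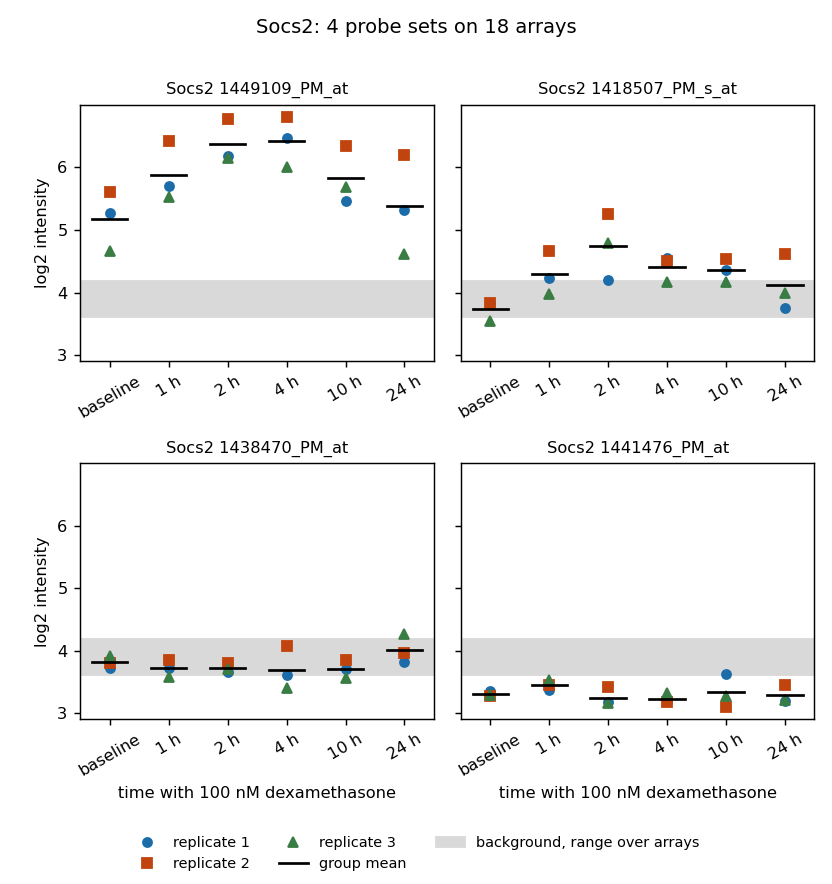
Log2 intensity of the 4 Socs2 probe sets (y axis) at baseline and 1, 2, 4, 10 and 24 h of 100 nM dexamethasone (x axis); each point is an array, its shape the replicate number, the black line the mean of 3 arrays and the grey band the range of the background level over arrays. On 1449109_PM_at the 2 h and 4 h arrays lie above all 3 baseline arrays and replicate 2 is the highest at all 6 times, while the 2 lower panels stay in or under the band except for 1 array at 24 h.

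The second responding Socs2 probe set, 1418507_PM_s_at, moved close to background. It read 3.82, 3.83 and 3.55 at baseline, where 1 of 3 arrays exceeded background. It read 4.23, 4.67 and 3.98 at 1 h, 4.20, 5.25 and 4.79 at 2 h, 4.55, 4.51 and 4.17 at 4 h, 4.37, 4.53 and 4.17 at 10 h and 3.75, 4.61 and 3.99 at 24 h. The 3 arrays at 2 h all lay above the 3 baseline arrays, with replicate 2 the highest. On this probe set Socs2 rose at 2 h by 1.01 ± 0.23, 2.02-fold (interval 0.53 to 1.49, adjusted p = 0.016). Its differences of 0.67 at 4 h and 0.62 at 10 h had adjusted p-values of 0.108 and 0.0981. With the replicate block these were 0.0148 and 0.0172. In the main fit the call thus fell at 2 h on one probe set and at 4 h on the other. The means of both probe sets were above baseline at both times. The suffix of this probe set marks probes that may also match other transcripts. The remaining 2 Socs2 probe sets did not show the response. 1438470_PM_at ranged from 3.41 to 4.27, above background on 6 of 18 arrays, with differences of -0.12 to 0.20. 1441476_PM_at ranged from 3.10 to 3.64, was above background on no array and did not pass the filter.

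Both Socs2 calls depended on single arrays. The 4 h call on 1449109_PM_at was lost without baseline replicate 3 (adjusted p = 0.127), without 4 h replicate 1 (0.0622) or without 4 h replicate 2 (0.12), and the 2 h call on 1418507_PM_s_at was lost without baseline replicate 3 (0.0991), without 2 h replicate 2 (0.169) or without 2 h replicate 3 (0.0595). The gap between the 3′ and 5′ Gapdh control probe sets, a measure of RNA quality, had a higher mean with treatment. It was 0.15 ± 0.08 at 2 h and 0.19 ± 0.02 at 4 h, against 0.06 ± 0.03 at baseline (log2, SD, n = 3). Single arrays overlapped at 2 h (0.06 to 0.20) and baseline (0.02 to 0.08). Those at 1 h (0.15 to 0.19), 4 h (0.17 to 0.21), 10 h (0.10 to 0.28) and 24 h (0.17 to 0.24) all lay above the baseline arrays. The same gap for Actb was 0.43 ± 0.02 at 2 h and 0.42 ± 0.03 at 4 h, against 0.38 ± 0.02 at baseline. Its lowest array was 0.407 at 2 h, 0.403 at 4 h, 0.404 at 10 h and 0.410 at 24 h, against a highest baseline array of 0.398. At 1 h the Actb arrays (0.372 to 0.431) overlapped the baseline arrays. No test of either gap was run, and their part in the Socs2 result was not tested. The Gapdh gap averaged 0.17 at 1 h, 0.20 at 10 h and 0.20 at 24 h. Its mean was thus also above baseline at the times of the Socs5 and Socs7 calls given below, where its part was not tested either.

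The genes whose log2 intensity was most like that of Socs2 on 1449109_PM_at over the 18 arrays were Trit1, a tRNA-modifying enzyme (Pearson r = 0.867), Rcan1, an inhibitor of calcineurin (r = 0.785), and Irf5, an interferon regulatory factor (r = 0.766). They were chosen among 2974 named probe sets that passed the F test, so their likeness is a description. Trit1 averaged 7.09 at baseline, 7.51 at 2 h, 7.53 at 4 h and 7.25 at 24 h. Irf5 averaged 8.06 at baseline, 8.42 at 2 h, 8.43 at 4 h and 8.01 at 24 h. Rcan1 was highest at 2 h, with 8.64, and averaged 8.10 at 24 h and 8.18 at baseline. In all 3, as in Socs2, the mean at 2 or 4 h was the highest of the 6.

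Cish, like Socs2 a STAT5 target, lay higher in most treated arrays but did not pass the test at any time in the main fit. Its 1 probe set, 1448724_PM_at, read 4.01, 4.07 and 3.91 at baseline, 4.36, 4.31 and 3.86 at 1 h, 4.29, 4.59 and 4.19 at 2 h, 4.58, 4.67 and 4.28 at 4 h, 4.24, 4.58 and 4.58 at 10 h and 4.31, 4.34 and 4.13 at 24 h. The arrays at 2, 4, 10 and 24 h all lay above the baseline arrays, and all 18 were above background by a small margin. The largest difference was 0.52 ± 0.16 at 4 h (interval 0.18 to 0.85, adjusted p = 0.0659), followed by 0.47 ± 0.16 at 10 h (adjusted p = 0.0689), 0.36 at 2 h, 0.26 at 24 h and 0.18 at 1 h. Without 4 h replicate 3 the 4 h difference passed the test (adjusted p = 0.0417), as it did without 1 h replicate 3 (0.0484), and the 10 h difference passed without 10 h replicate 1 (0.0382). The F test over the 5 times gave an adjusted p of 0.172. With the replicate block, limma's adjusted p for Cish was 0.027 at 4 h and 0.0327 at 10 h.

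The 2 members with a kinase inhibitory region were at or under background. Socs1, on 1450446_PM_a_at, ranged from 3.05 to 3.82 and was above background on 0 of 18 arrays, so these arrays carry no measured level of it. Socs3, on 1416576_PM_at, ranged from 3.30 to 4.24 and was above background on 3 of 18 arrays. Its 3 arrays at 24 h lay above the baseline arrays, by 0.34 with an interval of -0.05 to 0.72 (adjusted p = 0.314). The differences at 1, 2, 4 and 10 h were 0.07, 0.14, 0.23 and 0.31, none of them called. A signal this near background limits how large a fall these probe sets could show.

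**Figure D2:**
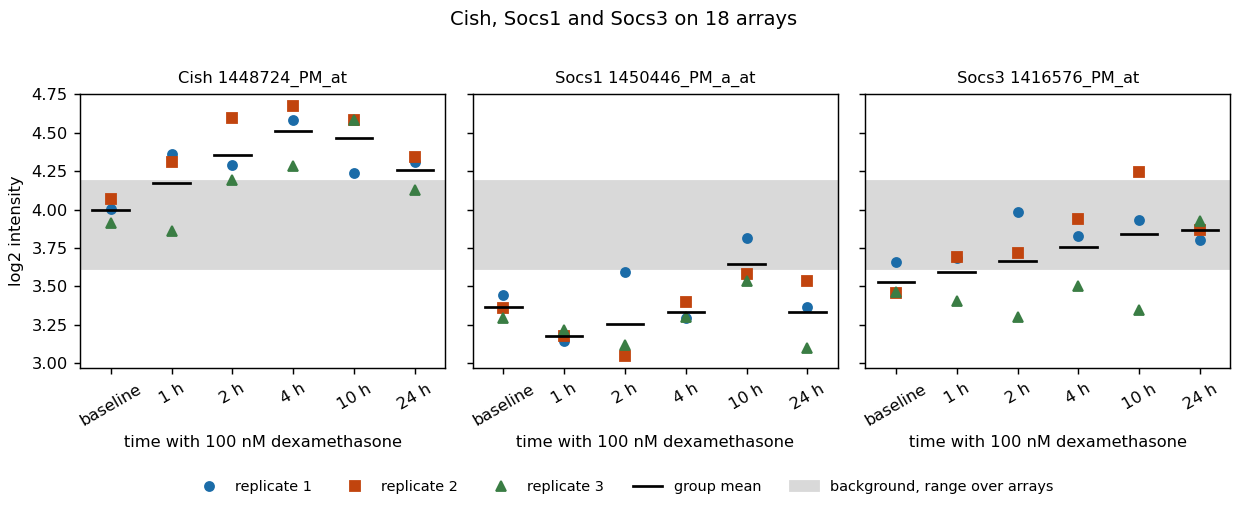
Log2 intensity of Cish, Socs1 and Socs3 (y axis) by time with 100 nM dexamethasone (x axis), with points for single arrays, shapes for replicate numbers, a black line for the mean of 3 arrays and a grey band for the range of the background level over arrays. Cish lies highest at 4 h and 10 h, with the 2 h to 24 h arrays above the 3 baseline arrays; Socs1 is above its array's background on 0 of 18 arrays and Socs3 on 3 of 18.

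Socs5 rose late on 1 of its 2 probe sets. On 1423349_PM_at it read 5.12, 5.34 and 4.90 at baseline, 5.56, 5.28 and 4.99 at 1 h, 5.92, 5.83 and 5.12 at 2 h, 5.07, 5.80 and 5.37 at 4 h, 5.57, 5.62 and 5.38 at 10 h and 5.84, 5.86 and 6.05 at 24 h. The 24 h and the 10 h arrays all exceeded the baseline arrays, while the 1, 2 and 4 h arrays overlapped them. At 24 h Socs5 rose by 0.80 ± 0.20, 1.74-fold (interval 0.38 to 1.21, adjusted p = 0.011), with the F test short of the threshold (adjusted p = 0.0734). The other Socs5 probe set, 1423350_PM_at, read 7.23, 7.58 and 7.56 at 24 h, against 7.20, 6.90 and 7.40 at baseline, with overlapping groups. Its difference was 0.29 ± 0.14 (interval 0.01 to 0.57, adjusted p = 0.218). The intervals of the 2 probe sets overlapped between 0.38 and 0.57. The call was lost without baseline replicate 3 (adjusted p = 0.0675) or without 24 h replicate 3 (0.056). The summed linear intensity of the 6 neutrophil markers was 121 to 144 over the 24 h arrays, against 185 to 271 over the baseline arrays, and its part in the Socs5 result was not tested.

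Socs4, the close relative of Socs5, gave no call on any of its 4 probe sets at any time. The most intense, 1455142_PM_at, stayed between 7.59 and 8.02 over all 18 arrays. It differed from baseline by -0.19 at 4 h (interval -0.38 to -0.00, adjusted p = 0.306) and by -0.01 at 24 h (interval -0.20 to 0.17). The other 3 Socs4 probe sets ranged from 5.52 to 6.15, from 5.18 to 6.07 and, on 1421274_PM_at, from 3.62 to 4.28, the last above background on 8 of 18 arrays.

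Socs7 fell at 4 h on 1 probe set of 4, the dimmest of the 3 tested. On 1420766_PM_at it read 4.69, 5.10 and 4.93 at baseline, 4.48, 4.28 and 4.99 at 1 h, 4.29, 4.25 and 4.46 at 2 h, 4.22, 4.05 and 4.30 at 4 h, 4.11, 4.50 and 4.74 at 10 h and 4.94, 4.47 and 4.31 at 24 h. All arrays at 2 h and at 4 h lay below the baseline arrays, and 2 of the 3 at 4 h still exceeded background. The 4 h difference was -0.72 ± 0.19 (interval -1.12 to -0.32, adjusted p = 0.0274) and the 2 h difference was -0.58 (adjusted p = 0.199). The 2 brighter Socs7 probe sets did not follow. 1455402_PM_at differed by 0.05 at 4 h (interval -0.13 to 0.23) and 1434834_PM_at by -0.01 (interval -0.20 to 0.18), so both intervals lay apart from that of 1420766_PM_at. The fourth probe set, 1438492_PM_at, was above background on no array and was not tested. The 4 h call was lost without baseline replicate 2 (adjusted p = 0.137), baseline replicate 3 (0.0816), 4 h replicate 1 (0.0701) or 4 h replicate 2 (0.129).

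Socs6 was not called. Its most intense probe set, 1450129_PM_a_at, ranged only from 8.34 to 8.74, and read 8.49, 8.38 and 8.34 at 2 h, against 8.58, 8.54 and 8.74 at baseline. The 2 h arrays were all below the baseline arrays, with a difference of -0.22 ± 0.07 (interval -0.36 to -0.08, adjusted p = 0.131), and at 24 h the difference was -0.01 (interval -0.15 to 0.13). At 10 h it was -0.17 (adjusted p = 0.129). The other 2 Socs6 probe sets ranged from 7.03 to 7.81 and from 5.10 to 6.15, with no call.

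**Figure D3:**
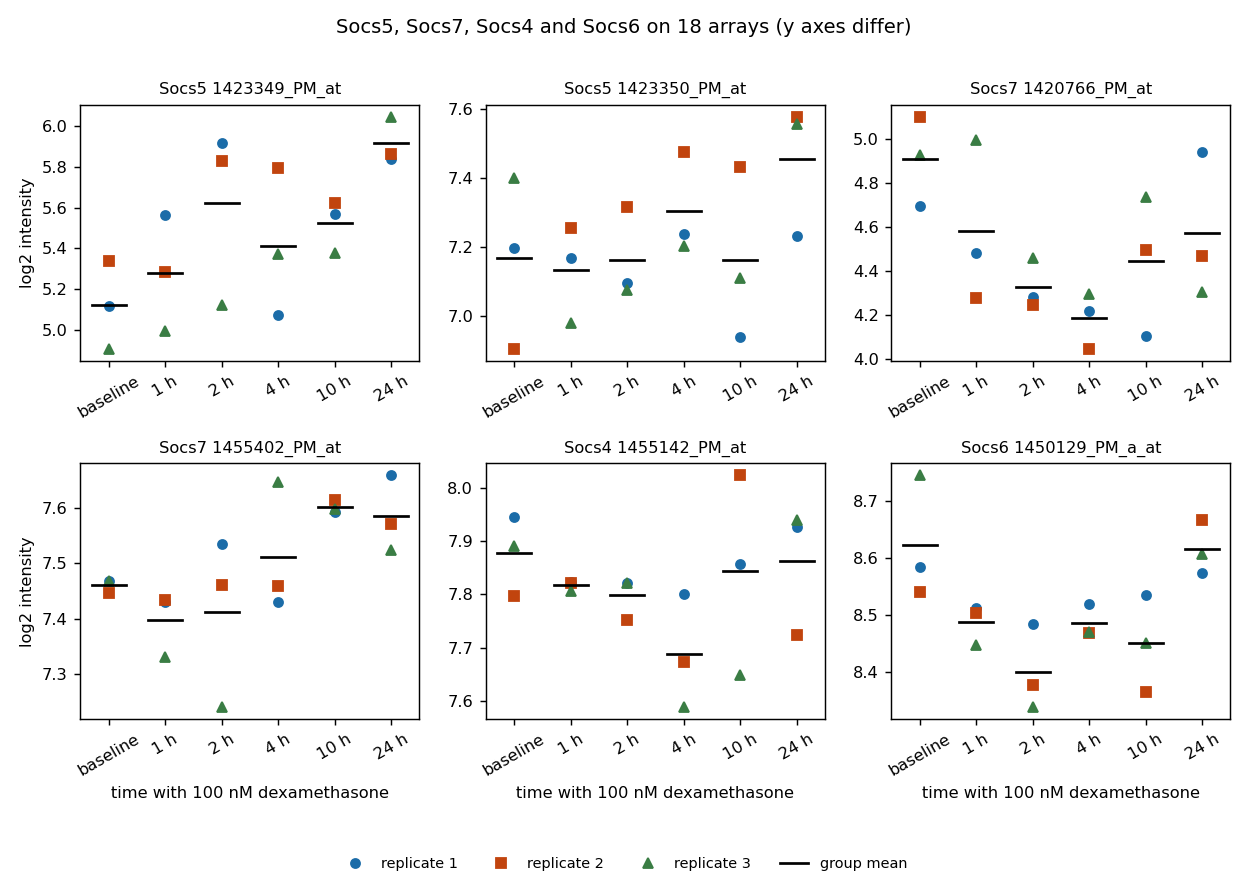
Log2 intensity of 2 Socs5, 2 Socs7, 1 Socs4 and 1 Socs6 probe sets (y axes, which differ between panels) by time with 100 nM dexamethasone (x axis); points are arrays, shapes replicate numbers and black lines means of 3 arrays. Socs5 on 1423349_PM_at is highest at 24 h and Socs7 on 1420766_PM_at lowest at 4 h, while the second probe set of each gene was not called at that time; for Socs5 it too has its highest mean at 24 h.

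Counted over the family, calls in the main fit were few and near the share of the whole array. At 1 h 0 of 18 probe sets passed limma's test, against 0.331% of all probe sets tested, with 2 of the 18 at an unadjusted p under 0.05. At 2 h 1 of 18 rose, 5.56% against 1.79%. At 4 h 1 rose and 1 fell, 11.1% against 5.22%. At 10 h 0 of 18 passed limma's test, against 9.71% of all, with 4 at an unadjusted p under 0.05. At 24 h 1 rose, 5.56% against 8.70%. Over the 5 times the F test called 1 of 18, against 12.5% of all. Between neighbouring times limma called 0 of 18 in each of the 4 steps, where 0.716%, 1.22%, 2.30% and 1.17% of all probe sets were called; at an unadjusted p under 0.05 the steps held 0, 0, 1 and 5 of the 18. The median log2 difference of the 18 was -0.03, -0.02, -0.01, 0.07 and 0.13 at 1, 2, 4, 10 and 24 h, beside 0.00, 0.02, 0.00, 0.01 and 0.01 over all probe sets. With shares this close to the background and 0 to 2 calls a time, the main fit's counts say nothing particular about the family. With the replicate block, limma called 1, 2, 4 and 3 of the 18 at 1, 2, 4 and 10 h and 3 by the F test. Over all probe sets the block called 193 at 1 h and 868 at 2 h, against 104 and 562 in the main fit. Its counts over all probe sets at 4 and 10 h and by the F test stayed within 1.5-fold of the main fit. Whether the family exceeds the block's shares was not tested. The 5 comparisons share the 3 baseline arrays. Baseline replicate 3 was the lowest baseline array for both called Socs2 probe sets and for the called Socs5 probe set. It was needed for each of the 4 calls of the main fit.

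**Figure D4:**
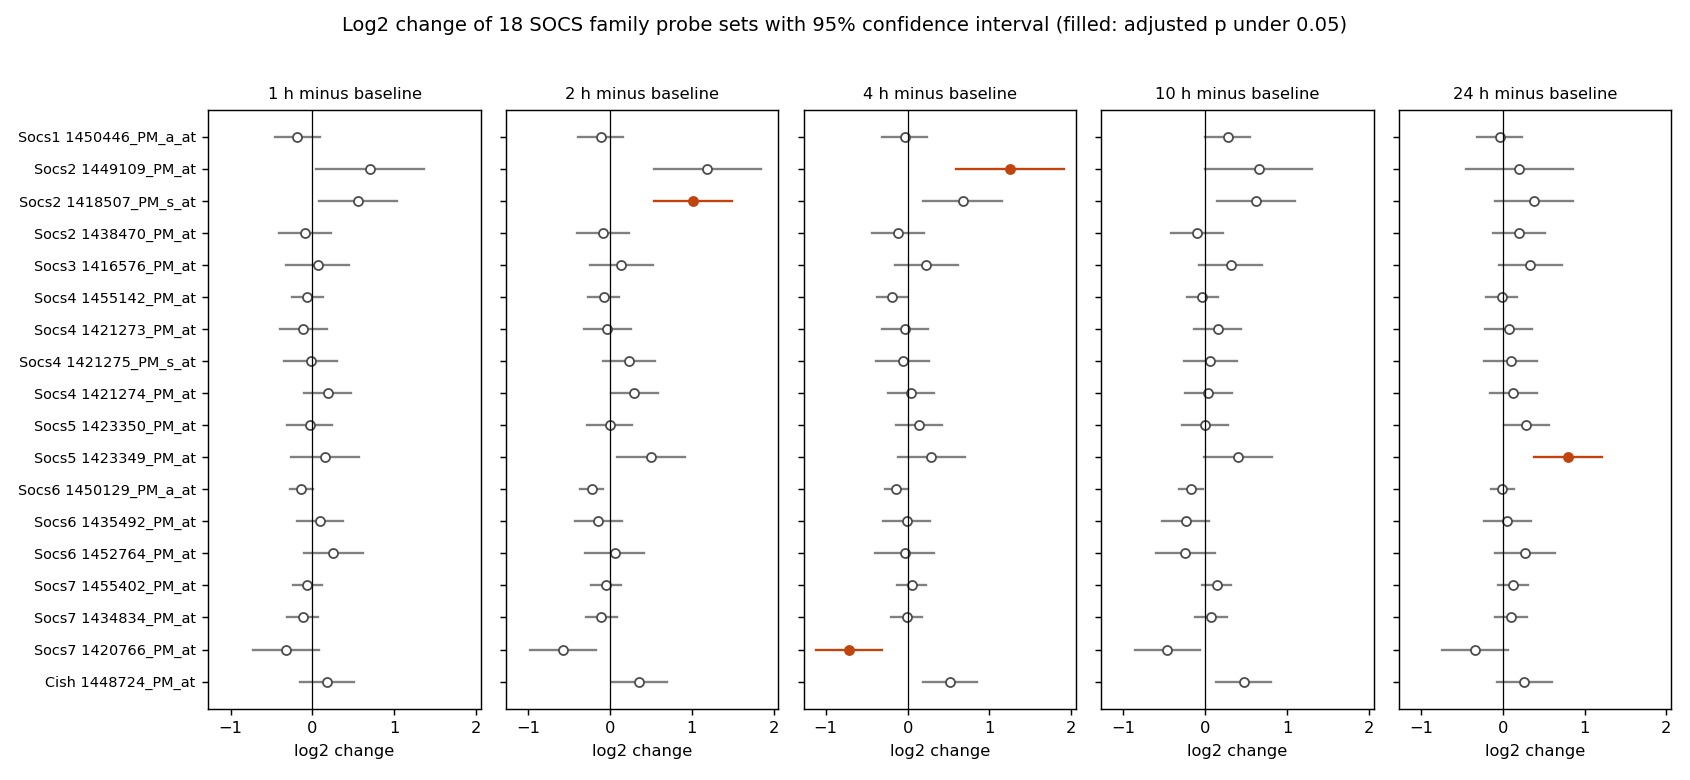
Log2 change against baseline (x axis) of the 18 tested SOCS family probe sets (rows) at 1, 2, 4, 10 and 24 h, with 95% confidence intervals from the limma fit and filled points for adjusted p under 0.05. The filled points are Socs2 at 2 h (1.01) and 4 h (1.25), Socs7 at 4 h (-0.72) and Socs5 at 24 h (0.80), and each belongs to a gene with other probe sets whose points are open at that time.

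The rest of the pathway was read from gene lists, each gene by its most intense probe set, in the same fit. The lists were chosen with earlier results of these data known, so the shares called below are descriptions and cannot test for enrichment. Read in this way, 0.348%, 2.05%, 6.64%, 12.5% and 11.2% of all 13201 named genes were called at 1, 2, 4, 10 and 24 h, and 17.9% at 1 time or more. Among the JAK kinases and STAT factors, 10 of 11 were tested and 2 rose, both called at 10 h, when 12.5% of all named genes were called. They were Jak2, a kinase of many cytokine receptors, by 0.33 ± 0.09 (adjusted p = 0.0193) and Stat3, the main factor downstream of gp130, by 0.26 ± 0.08 (adjusted p = 0.0329). The median of the 10 was 0.08 at 10 h, against 0.01 over all probe sets. At 24 h Jak2 differed by 0.24 ± 0.09 (adjusted p = 0.119). The Jak2 call was lost without baseline replicate 1 (0.0954) or 10 h replicate 1 (0.125), and the Stat3 call without any 1 of the 3 baseline arrays or without 10 h replicate 1 or 2 (highest adjusted p 0.124).

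Of 13 other brakes of the pathway, 3 were called at 1 time or more, beside 17.9% of all 13201 named genes read in the same way. Ptpn6, the phosphatase SHP-1 that acts on JAK kinases, averaged 10.35 at 4 h, against 10.61 at baseline, and fell by 0.25 ± 0.05 (adjusted p = 0.00176), with -0.22 at 10 h and -0.17 at 24 h. The 24 h call of Ptpn6 was lost without baseline replicate 1 or 3 or without 24 h replicate 1 or 3 (highest adjusted p 0.205). Cblb, a ubiquitin ligase, averaged 8.73 at 4 h, against 9.14 at baseline, and fell by 0.41 ± 0.08 at 4 h and by 0.41 at 10 h. Its relative Cbl rose, by 0.24 ± 0.06 at 10 h and 0.27 ± 0.06 at 24 h; the 10 h call was lost when only the groups compared were fitted (adjusted p = 0.0517). The list's median was 0.01 at 4 h, -0.03 at 10 h and 0.00 at 24 h, against 0.00, 0.01 and 0.01 over all probe sets. Of the 8 tested partners of the SOCS box ligase, limma called 0 at each of the 5 times, with 0, 1, 0, 2 and 2 at an unadjusted p under 0.05. The most intense, Eloc, which encodes elongin C, stayed within 0.10 of its baseline mean of 11.37.

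Of the receptors that SOCS proteins act on, 8 of 21 tested genes were called at 1 time or more, beside 17.9% of all 13201 named genes. This list too was chosen with earlier results known, so the share is a description. Lifr, the receptor of leukaemia inhibitory factor and a partner of gp130, averaged 6.11 at 2 h, 7.53 at 4 h, 7.82 at 10 h and 7.86 at 24 h, against 4.21 at baseline, and rose by 1.90, 3.31, 3.61 and 3.65 ± 0.17. Insr, the insulin receptor, rose at the same 4 times by 0.45, 0.76, 0.82 and 0.57 ± 0.11. Il6ra, the IL-6 receptor chain, rose by 0.70, 0.70 and 0.63 ± 0.11 at 4, 10 and 24 h, and Ifngr1, the binding chain of the interferon gamma receptor, by 0.32, 0.60 and 0.50 ± 0.06. Igf1r, the receptor of insulin-like growth factor, rose at 10 h by 0.58 ± 0.15 (adjusted p = 0.0122) and differed by 0.44 ± 0.15 at 24 h (adjusted p = 0.0744). Its 10 h call was lost without baseline replicate 3 (0.116) or 10 h replicate 2 (0.0589). The 2 h call of Insr was lost without baseline replicate 3 (0.193) or 2 h replicate 1 (0.197). Il12rb1 passed the test at 24 h, but it was above background on only 2 of 18 arrays. Between 2 and 24 h the median of the 21 receptors lay between -0.02 and 0.03, beside 0.00 to 0.02 over all probe sets. Of 12 tested cytokines that signal through JAK kinases 1 was called at any time, beside 17.9% of all named genes. It was Lif at 24 h, above background on only 3 of 18 arrays, and the call was lost without baseline replicate 2 (adjusted p = 0.202), baseline replicate 3 (0.157), 24 h replicate 1 (0.0844) or 24 h replicate 2 (0.126). The list's median lay between -0.09 and -0.02 over the 5 times.

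Genes known as STAT targets outside the family moved in both directions, with 9 of 20 called at 1 time or more, beside 17.9% of all named genes. The choice of this list with earlier results known makes that share a description. Fos, an immediate early transcription factor, rose at all 5 times, by 1.28, 1.18, 1.39, 1.04 and 0.50 ± 0.10. Bcl2l1, which encodes the survival factor Bcl-xL, rose by 0.48, 0.60, 0.51 and 0.42 ± 0.08 from 2 h on. Fgl2, a fibrinogen-like gene, rose by 0.91, 1.35 and 0.88 ± 0.21 at 2, 4 and 10 h; its 2 h call was lost without baseline replicate 2 (0.0949), 2 h replicate 1 (0.0704) or 2 h replicate 3 (0.0617), and its 10 h call without 10 h replicate 3 (0.0611). Pim3, a serine kinase, rose by 0.59 at 10 h and 0.81 ± 0.17 at 24 h, the first lost without baseline replicate 3 (0.156), 10 h replicate 1 (0.0847) or 10 h replicate 2 (0.135). Its relative Pim1 fell at 4 h, by 0.55 ± 0.16 (adjusted p = 0.0385), a call lost without any 1 of the 3 baseline arrays or without 4 h replicate 2 or 3 (highest adjusted p 0.221). Ccnd1, which encodes cyclin D1, fell by 0.38 at 10 h and by 0.46 ± 0.06 at 24 h. The list's median lay between -0.05 and 0.01 over the 5 times. Beside the pathway changes at 10 and 24 h, 2 of 6 neutrophil markers fell at each of these times. The rest of the 6 were not called, and 12.5% and 11.2% of all named genes were called at 10 and 24 h. Whether the markers exceed that share was not tested. The summed linear intensity of all 6 was 145 to 201 at 10 h, overlapping the baseline range of 185 to 271. At 24 h it was 121 to 144, below that range. The mean Gapdh gap given for Socs2 was also above baseline at 10 and 24 h. The part of the neutrophil markers or of the Gapdh gap in the list changes was not tested.

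**Figure D5:**
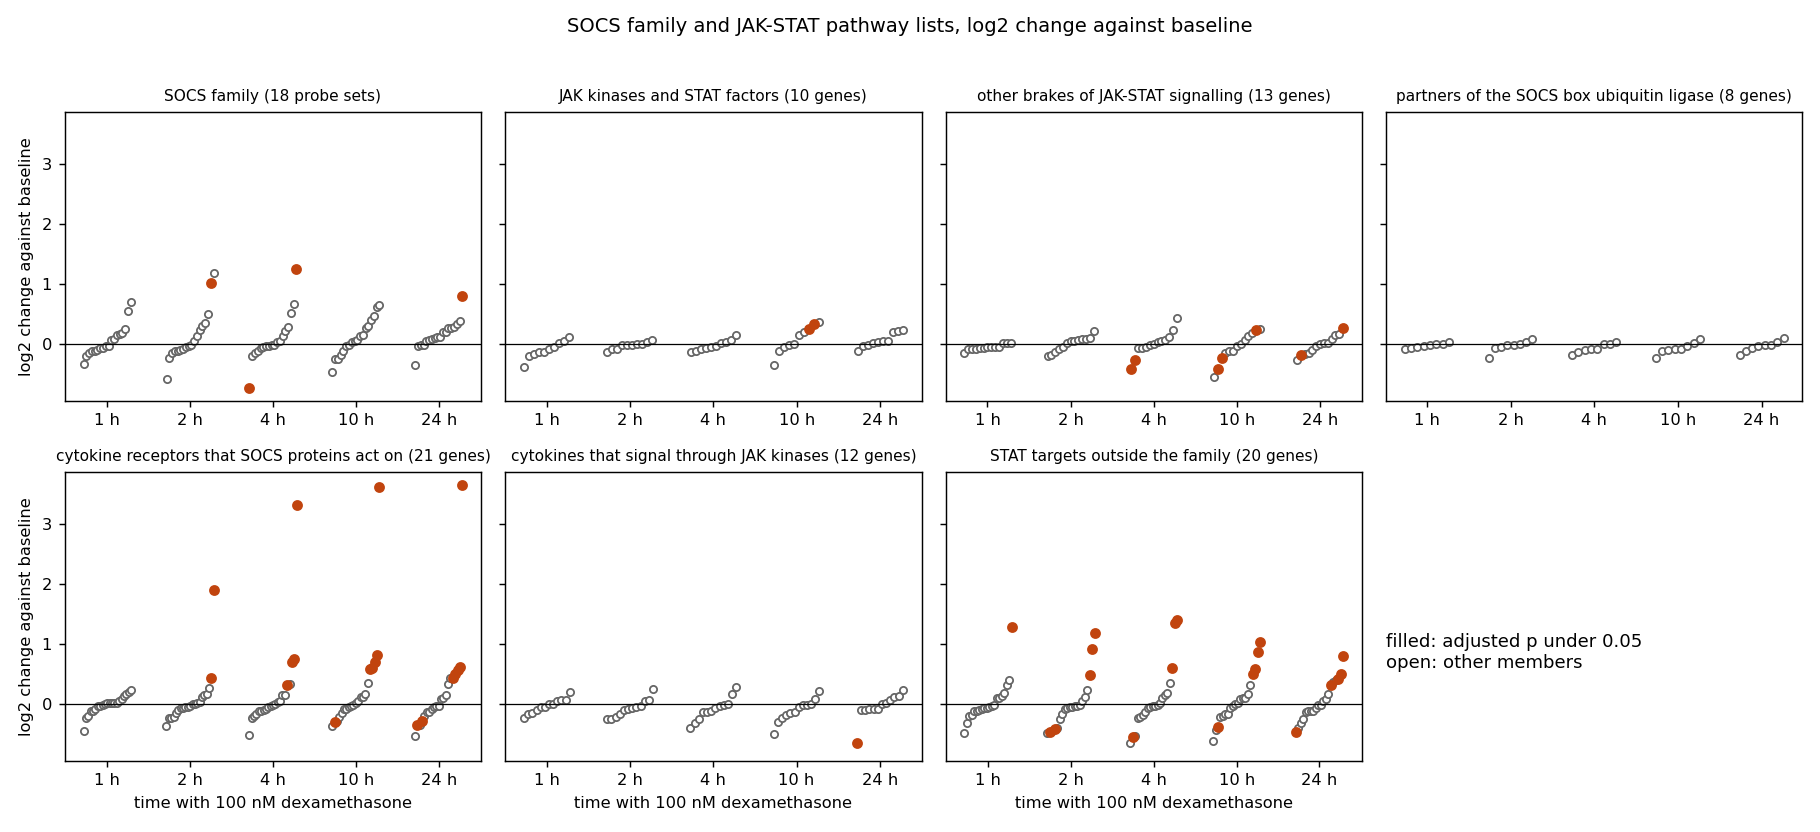
Log2 change against baseline (y axis) of each tested member of the SOCS family and of 6 pathway lists at 1, 2, 4, 10 and 24 h of 100 nM dexamethasone (x axis), sorted by value within a time; filled points have an adjusted p under 0.05. Lifr is the highest filled point among receptors (3.65 at 24 h) and Fos the highest among STAT targets at 4 h (1.39), the SOCS box partners have no filled point, and the family has 4.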

How the data were processed

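The values were intensities of 45141 probe sets on 18 Affymetrix arrays, deposited by the authors on a linear scale of 5.37 to 15224. Per the submitters' processing notes the authors used RMA and affy; versions are not given in the sources used here. Because RMA equalises the distributions of arrays, a shift common to most genes would not be seen. Gene symbols came from the platform annotation, and 28898 probe sets had 1 symbol. Samples were grouped by the time in their labels.

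From these values, log2 intensity was computed. The test took probe sets at or over the 40th percentile of the array on 3 arrays or more. The 104 control probe sets were left out, as were 211 consecutive probe sets whose values on baseline replicate 1 formed an even series; no family member lay among these. limma 3.58.1 in R 4.3.3 fitted 6 group means with an intensity trend and 12 residual degrees of freedom, and p-values were Benjamini-Hochberg adjusted over the 31421 probe sets within each comparison. Adjusted p-values are from limma throughout, and intervals are 95% confidence intervals of that fit. The fit was tested on simulated data. Marrow of 3 mice was used, and the labels do not say which arrays share a mouse, so p-values measure the spread between these arrays. The number of arrays limits the precision, and the labels name no scan batch. Genes named are all family members, up to 6 called members of each list with the largest change at a called time (the most intense where none was called), and the 3 genes most like a family member called by the F test. The members and lists were chosen with earlier results of these data known. The alternatives were a block for the replicate number, filters, probe set choice, variance model, arrays in the fit, centring, array weights, an offset of 16, the even series, and each array left out; they were extended to the list genes after the data had been seen.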

Additional observations from a re-analysis of the deposited data

How the results depend on the processing

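No call reversed its direction under any alternative run. Each of the family's log2 changes against baseline was counted once per alternative. Over the alternatives that kept all arrays, 902 such cases kept their side of the threshold, 15 passed it newly and 3 lost it. With 1 array left out the counts were 1599, 9 and 12. Most cases kept were of changes not called in either fit, and every loss fell on a call of the main fit. Of the 18 fits with 1 array left out, the Socs2 calls at 2 h and 4 h each held in 15, Socs7 at 4 h in 14 and Socs5 at 24 h in 16. Of 68 calls of list genes, 52 held in every alternative and 16 were lost in at least 1. The 68 include the treatment check genes Fkbp5, Tsc22d3, Per1 and Dusp1, with 3, 4, 4, 4 and 4 calls at 1, 2, 4, 10 and 24 h. All of these held, so all 16 lost calls were of genes in the pathway lists.

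The main counts of called family probe sets were 0, 1, 2, 0 and 1 at 1, 2, 4, 10 and 24 h and 1 by the F test. Without the intensity trend they were 0 at 2 h, 0 at 4 h and 0 by the F test, with adjusted p-values of 0.0589 (Socs2 at 2 h), 0.0766 (Socs2 at 4 h) and 0.0506 (Socs7 at 4 h). Without the filter the 2 h count was 2. With 1 probe set per gene it was 1 at 10 h (Cish, adjusted p = 0.0475) and 0 at 24 h, where the called Socs5 probe set is not the one kept. With only the groups compared it was 2 at 2 h and 1 at 10 h, and no F value exists. With array weights the F test called 2. These are the counts that moved by more than 1.5-fold, or to or from 0. Smaller moves also occurred at 4 h. Socs2 on 1418507_PM_s_at was gained with only the groups compared (limma adjusted p = 0.024), and Cish with a filter at the 60th percentile (0.0496). With 1 probe set per gene Cish was gained at 4 h (0.0455), while the called Socs7 probe set is not the one kept. Leaving out 1 array gave 0 to 0 at 1 h, 0 to 2 at 2 h, 0 to 3 at 4 h, 0 to 1 at 10 h, 0 to 1 at 24 h, 0 to 0 in each step and 0 to 3 by the F test. The 2 probe sets left out as dim were not called without the filter.

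Arrays with the same replicate number deviated together in 36 of 45 pairs (correlation over 0.1) and not in all (lowest -0.014, median 0.135), and 18 of 18 arrays correlated best with their own number; this is a hint from the data, not the design. With the replicate block the family counts, of 18 probe sets, were 1, 2, 4 and 3 at 1, 2, 4 and 10 h, 1 between 4 and 10 h (Socs2 on 1449109_PM_at, -0.60, adjusted p = 0.0235) and 3 by the F test. The block also raised counts over all probe sets at 1 h, at 2 h and in the steps, as given below. Socs2 on 1449109_PM_at then had adjusted p-values of 0.022 at 1 h, 4.57e-06 at 2 h and 0.00397 at 10 h, and Cish 0.027 at 4 h and 0.0327 at 10 h.

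Over all probe sets, the block called 193 at 1 h, 868 at 2 h and 351, 878, 1331 and 870 in the 4 steps, against 104, 562, 225, 382, 723 and 367 in the main fit. Its counts at 4, 10 and 24 h and by the F test stayed within 1.5-fold of the main 1641, 3050, 2734 and 3939. With 1 probe set per gene, which tests fewer features, the counts were 51, 283, 992, 1905 and 1678 at the 5 times, 148 and 251 in the first 2 steps and 2300 by the F test, against 104, 562, 1641, 3050 and 2734, 225 and 382, and 3939. Without the trend the steps called 141, 196, 389 and 144. With only the groups compared 1931 were called at 10 h and 420 and 208 in the last 2 steps. Leaving out 1 array brought the step counts to as few as 126, 187, 396 and 162. The cause of these shifts was not tested. Near background, as for Socs1, Socs3 and the dim Socs2 and Socs7 probe sets, a fall could hardly be measured.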

Other observations

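Among the list genes not described above, Csf2rb, the shared beta chain of the GM-CSF, IL-3 and IL-5 receptors, fell at 24 h by 0.27 ± 0.06 on the log2 scale (adjusted p = 0.00226). Its near-identical mouse paralog Csf2rb2 averaged 9.54 at 24 h, against 9.89 at baseline, and fell by 0.34 ± 0.07; at 10 h it fell by 0.29, a call lost without baseline replicate 3 (adjusted p = 0.0554). Probes for the 2 genes may read each other's transcripts. Bcl6, a transcriptional repressor, averaged 8.24 at 2 h, against 8.70 at baseline, and fell by 0.46 ± 0.10 (adjusted p = 0.0123). Irf8, a factor of the macrophage lineage, averaged 8.24 at 2 h, against 8.65 at baseline, and fell by 0.41 ± 0.09 (adjusted p = 0.0119). Both 2 h calls were lost without baseline replicate 1 (adjusted p of 0.087 for Bcl6 and 0.0732 for Irf8) and without other single arrays. Cebpd, a CCAAT-binding factor, rose at 24 h by 0.32 ± 0.10 (adjusted p = 0.0471), a call that 11 of the 18 single-array omissions ended, with adjusted p-values up to 0.227. Nr3c1, which encodes the glucocorticoid receptor, averaged 8.20 at 4 h, against 8.47 at baseline, a difference of -0.27 that was not called (adjusted p = 0.0715).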
